A study of Saccharomyces cerevisiae with 8 samples.

Results

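Read depth along the genome was compared directly between Mcm6-SuOn and Mcm6-ctrl diploid yeast cells 30 min after release from a cdc7-4 block. The comparison was made on 22645 windows of 1000 bp, of 24133 windows in the genome, chosen as those with a deposited value in both 30 min libraries. A right-hand part of chromosome III was left out, so that the last window kept there started at 197501. The number compared in each window was the read count of the Mcm6-SuOn library over that of the Mcm6-ctrl library, after each library had been divided by its own median window. Called the genotype ratio below, it holds no 0 min reads, in contrast to the deposited ratios, each of which has the 0 min library of its genotype in the denominator.

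Both cultures were Saccharomyces cerevisiae of the W303 background and homozygous for cdc7-4, a temperature-sensitive allele of the kinase Cdc7. Both were heterozygous for Mcm6-aid::HIS3, a form of the helicase subunit Mcm6 that auxin removes, and for ADH1-TIR::URA, which supplies the auxin receptor from the ADH1 promoter. One culture carried Mcm6-SuOn::KAN, a form made in the study to raise sumoylation of the MCM helicase, and the other Mcm6-ctrl::KAN, its control, both heterozygous in the labels. Cells were grown at 24°C and arrested at G2/M with nocodazole. They received 1 mM of the auxin IAA, were held at 37°C, and were released at 24°C. Samples of each genotype were taken at 0, 15, 30 and 40 min, which gives 8 libraries with 1 per genotype and time, each genotype under a single strain ID. No difference given here therefore has a replicate check, and the genotypes could not be tested against each other at a single time.

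An origin of replication is licensed in G1 when a double ring of MCM helicase is loaded onto it. In S phase, Cdc7 with its partner Dbf4 phosphorylates MCM, which lets the helicase open the DNA and forks leave in both directions. DNA near an origin that has fired is present in more copies than DNA not yet replicated, so that in a population in S phase read depth peaks at active origins and is lowest where forks arrive last. Origins fire in a characteristic order, and genes near them are copied early or late accordingly.

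The 30 min libraries held 16548844 Mcm6-SuOn reads and 17623002 Mcm6-ctrl reads in the windows kept, with each read counted once, and medians of 1443 and 1536 reads in a window. Counting error alone gives the log2 genotype ratio of a window an SD of 0.053. One other library stood apart from the rest. At 10 to 30 kb from a chromosome end, the Mcm6-ctrl library at 0 min had a median read depth of 0.853 times its median window, while the 7 others lay between 1.0005 and 1.14. The genotype ratio at 20 to 30 kb from an end accordingly had a median of 1.18 at 0 min and 1.01 at 30 min. That library does not enter the genotype ratio at 30 min, but it has a share in placing the zones described next, and values without it are given beside the main ones.

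Places that replicate earlier than their surroundings were located without the 30 min libraries. For this, the 15 min reads of both genotypes were added and divided by the added 0 min reads, and local maxima of the smoothed profile were taken as early zones. The lowest point between adjacent early zones was taken as a late zone. Early and late are thus meant relative to the neighbourhood, and the classes overlap in the profile that defined them. Early zones stood as low as 0.960 in this profile, in multiples of its median, while the late zone centred at 60500 on chromosome IX stood at 1.108. This gave 182 early zones, of which 181 had enough windows to be measured, and 166 late zones. Each was measured over the windows within 2.5 kb of its centre. A zone is a place of raised or lowered copy number and was not matched to a mapped origin or a gene, because the gene table used belongs to another assembly than the sacCer2 coordinates of the files.

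At 30 min, early zones held less DNA in Mcm6-SuOn than in Mcm6-ctrl, relative to the median of each library, and late zones held more. The genotype ratio at early zones had a median of 0.943, with quartiles of 0.916 and 0.974, and 168 of 181 zones (92.8%) were below 1. Over all windows compared, 49.6% were below 1. At late zones the median was 1.03, with quartiles of 0.994 and 1.06, and 114 of 166 zones (68.7%) were above 1. Summed over the early zones there were 1420135 Mcm6-SuOn reads and 1601130 Mcm6-ctrl reads, which gave a ratio of 0.944 (95% interval 0.942 to 0.946). The late zones together gave 1.02 (1.02 to 1.03). Of their reads, 142849 of 1419417 in Mcm6-SuOn and 148132 of 1477172 in Mcm6-ctrl came from 1 zone. It lay on chromosome XII at 458501 to 462000, with a level of 33.0 times the median window in Mcm6-SuOn and a ratio of 1.03. These intervals and all others here are exact binomial, cover counting error only, and treat reads as independent, which reads without molecular identifiers need not be.

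Zone by zone, the interval lay wholly below 1 at 134 of the early zones, wholly above 1 at 6, and held 1 at the remaining 41. At the late zones it lay above 1 at 78, below 1 at 21, and held 1 at 67. A zone typically rested on 7936 Mcm6-SuOn and 8993 Mcm6-ctrl reads (medians over early zones). On the log2 scale, the early minus the late median was -0.12, a difference that a common factor between the 2 libraries does not alter. The direction was kept without the control's 0 min library. With zones placed over the Mcm6-SuOn 0 min library alone, the early median was 0.9496 and 186 of 207 zones were below 1. With zones placed on Mcm6-SuOn libraries alone, it was 0.956 and 162 of 207 zones were below 1.

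**Figure D1:**
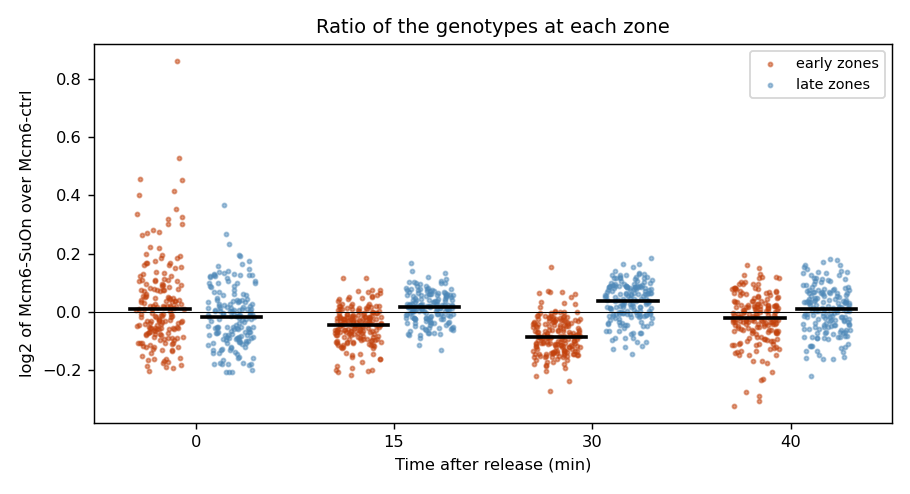
Log2 of Mcm6-SuOn over Mcm6-ctrl (y axis) at each of the 181 early zones and 166 late zones (points) by time after release in min (x axis), with black bars at the medians and 1 library per genotype and time. At 30 min the early median is 0.943 as a ratio and the late median 1.03, and most early zones lie below the line at 0.

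The same zones at the other times gave smaller differences between early and late. Before release, at 0 min, the genotype ratio had a median of 1.01 at early zones and 0.988 at late zones, and 88 of 181 early zones were below 1. The 15 min medians were 0.971 and 1.01, with 144 early zones below 1. By 40 min they were 0.987 and 1.01, with 108 early zones below 1. The plot of zone ratios by time shows this: the early zones shift below the line at 15 min, lie lowest at 30 min and spread around it again at 40 min. The 40 min values differed by height in the 15 over 0 min profile. The 60 highest zones had a median of 0.946 with 51 below 1. The 60 middle zones had 0.990 with 37 below 1, and the 61 lowest had 1.01 with 20 below 1. On the log2 scale, early minus late medians came to 0.026 before release, then -0.062 (15 min), -0.12 (30 min) and -0.029 (40 min). Libraries of 0 and 15 min placed the zones, so their values are a description, and those of 30 and 40 min did not enter the placing. Whether the times differ was not tested, with 1 library each.

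Of the 181 early zones, 139 were below 1 at both 15 and 30 min, and 80 at 15, 30 and 40 min. Among the later times, the ratio was lowest at 30 min in 100 zones, at 40 min in 41 and at 15 min in 40. Across early zones, the log2 ratio at 30 min had a Pearson correlation of 0.38 with that at 15 min, -0.11 with that at 40 min and 0.27 with that at 0 min (n = 181 zones, which share libraries at each time and are not replicates).

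Set over the added 0 min reads of both genotypes, a common denominator that puts both libraries on a copy number scale, the range between early and late zones was narrower in Mcm6-SuOn. Early zones had a median relative copy number of 1.03 in Mcm6-SuOn and 1.097 in Mcm6-ctrl. Late zones had 0.976 in Mcm6-SuOn and 0.951 in Mcm6-ctrl. Mcm6-SuOn values ran from 0.901 to 1.49 at early zones and from 0.852 to 1.15 at late zones. In Mcm6-ctrl they ran from 0.945 to 1.54 and from 0.798 to 1.24. The zones of both classes overlapped in both genotypes. The added 0 min reads also placed the zones, and they include the Mcm6-ctrl library that stood apart. The highest values, 1.49 and 1.54, were at zones with a 0 min genotype ratio of 1.82 and 1.33. Without that denominator, as multiples of the median window, early and late medians were 1.02 and 1.001 in Mcm6-SuOn. In Mcm6-ctrl they were 1.08 and 0.966. In a culture, a difference in the gain of copies per cell and a difference in how many cells gained them cannot be told apart. Since each library is scaled to its own median, the total amount of DNA synthesised is not seen. Whether both cultures had reached the same point of S phase when sampled was not tested.

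**Figure D2:**
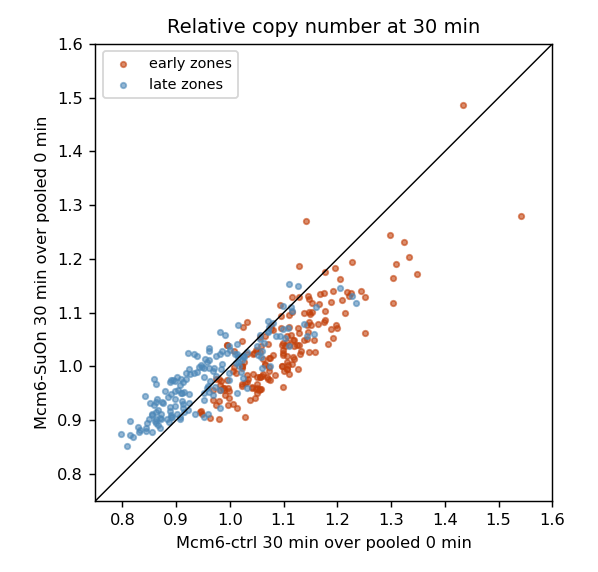
Relative copy number at 30 min over the added 0 min reads in Mcm6-SuOn (y axis) and Mcm6-ctrl (x axis) at early and late zones (points), with the line of equal values. Early zones lie mostly under the line (medians 1.03 in Mcm6-SuOn and 1.097 in Mcm6-ctrl), and late zones mostly above it (0.976 and 0.951).

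The lower ratio at early zones was local. Within 5 kb of the centre the median log2 genotype ratio was -0.082, and 166 of 181 zones were below 0. It was -0.043 at 5 to 10 kb, -0.010 at 10 to 15 kb, and above 0 farther out, at 0.029 for 15 to 20 kb and 0.037 for 20 to 25 kb, where 36 zones were below 0. By 35 to 40 kb it was back at 0.0027. Measured against its own flanks 20 to 30 kb away on both sides, an early zone had a median log2 difference of -0.13, a ratio of 0.917, and 162 of the 175 zones with windows on both flanks lay below their flanks. In the 0 min libraries this measure was 0.00093, in those of 15 min it was -0.052, and in those of 40 min -0.015. The profile around zone centres thus dips over about 10 kb on each side at 30 min, with shallow shoulders above 0 beyond.

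Around late zones the picture was inverted and shallower. The median log2 ratio was 0.038 within 5 kb of the centre, 0.015 at 5 to 10 kb, -0.014 at 10 to 15 kb and -0.029 at 15 to 20 kb. Late zones far from an early zone differed more. In the farthest class of 3 equal classes, 20.5 to 71 kb from the nearest early zone, the median ratio was 1.05 and 49 of 56 zones were above 1. In the middle class it was 1.03 with 40 of 55 above 1, and in the nearest class, 8 to 14 kb away, 0.995 with 25 of 55 above 1. Over the added 0 min reads, the farthest class had a median of 0.932 in Mcm6-SuOn and 0.888 in Mcm6-ctrl.

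**Figure D3:**
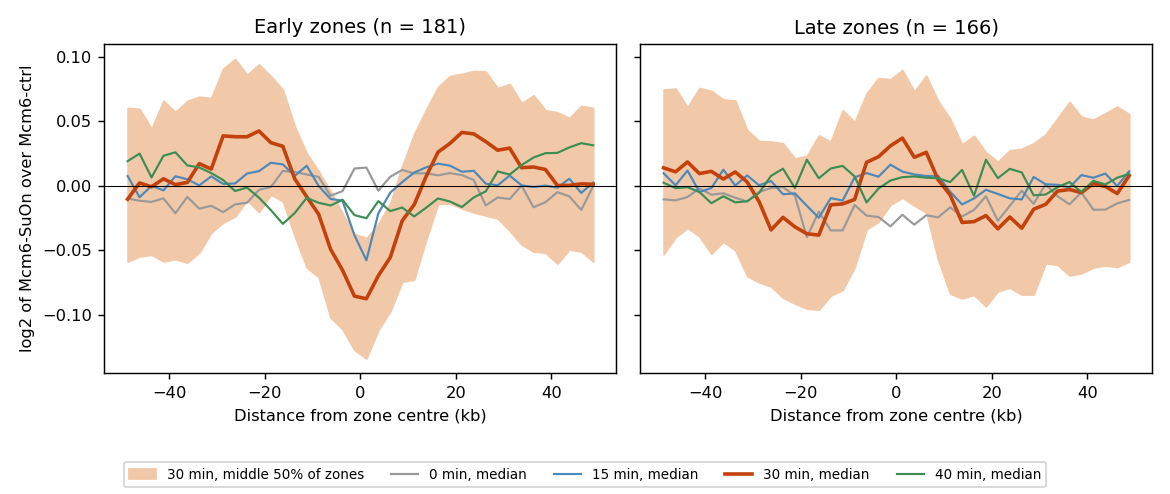
Median log2 of Mcm6-SuOn over Mcm6-ctrl (y axis) by distance from the zone centre in kb (x axis, steps of 2.5 kb) at early zones (left) and late zones (right), with a line for each time and a band for the middle 50% of zones at 30 min. At early zones the 30 min line has its lowest point, -0.088, beside the centre and crosses 0 between 10 and 15 kb away.

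The ratio at an early zone varied little with how high the zone stood in the 15 over 0 min profile. Of 3 equal classes by this profile, the highest had a median ratio of 0.944, the middle 0.941 and the lowest 0.942. The Pearson correlation between profile and log2 ratio was 0.00027 (Spearman -0.0048, n = 181 zones). Height in this profile also went with the 0 min genotype ratio, whose reads are in its denominator. That ratio had a median of 1.09 in the 60 zones highest in the profile and 0.948 in the 61 lowest. Its part in the flat relation was not tested. In the highest class 54 of 61 zones were below 1, and in the lowest class all 60. Zones farther from a chromosome end had slightly lower ratios. Those 17 to 154.5 kb from an end had a median of 0.955 with 49 of 60 below 1, and those 297.5 kb or more away 0.935 with 60 of 61 below 1. By distance to the nearest other early zone, the medians of the classes were 0.946, 0.940 and 0.940 from close to far.

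The 10 zones with the highest 15 min profile show the range. Of these, 8 were below 1 with intervals that excluded it, and the ratios ran from 0.829 to 1.11. The zone on chromosome I at 168001 to 174000 had 8415 Mcm6-SuOn reads and 10799 Mcm6-ctrl reads, with levels of 0.972 and 1.17 times the median window and a ratio of 0.829 (0.806 to 0.854). It was the lowest early zone of all. Before release its ratio was 1.33, after 15 min 0.955 and after 40 min 0.801. The median over all windows of chromosome I moved the same way, with 1.18 before release, 0.983 at 15 min, 0.968 at 30 min and 0.884 at 40 min. Against its own flanks, the zone had a log2 difference of -0.017 before release and -0.063 at 15 min. This difference was -0.21 at 30 min and 0.042 at 40 min.

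Among the others of these 10, the zone on chromosome III at 73001 to 79000 had a ratio of 0.893 (0.867 to 0.920) and that on chromosome VIII at 45501 to 51500 had 0.902 (0.874 to 0.932). Chromosome XIV at 56501 to 62500 gave 0.916, chromosome IX at 405501 to 411500 gave 0.926, chromosome XV at 1054501 to 1060500 gave 0.930, chromosome V at 55001 to 61000 gave 0.937 and chromosome I at 22001 to 28000 gave 0.959. All 8 had been above 1 at 0 min, between 1.12 and 1.37. The remaining 2, centred 25 and 17 kb from a chromosome end, were above 1. Chromosome IX at 24501 to 28000 had a ratio of 1.04 (0.985 to 1.09) and chromosome XVI at 14001 to 20000 had 1.11 (1.07 to 1.15), the highest of all early zones, with 6293 Mcm6-SuOn reads and 6020 Mcm6-ctrl reads. At 0 min these had ratios of 1.82 and 1.32, and the 0 min reads entered the profile that chose them. The part of the low control depth in their choice was not tested.

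After the zone on chromosome I, the lowest early zones lay on chromosome XII. The zone at 509001 to 515000 had 7208 Mcm6-SuOn reads and 9044 Mcm6-ctrl reads, a ratio of 0.848 (0.822 to 0.875). Its ratio was 1.03 before release, 0.879 after 15 min and 1.05 after 40 min. The zone at 371001 to 377000 had a ratio of 0.858 (0.834 to 0.883), with 1.01 before release, 0.872 after 15 min and 0.977 after 40 min. Both were thus lower in Mcm6-SuOn at 15 and 30 min and nearer to 1 at 0 and 40 min. At the other extreme, after chromosome XVI, the zones on chromosome IV at 1421501 to 1427500 and chromosome II at 675501 to 681500 had ratios of 1.05 (1.02 to 1.09) and 1.05 (1.01 to 1.09). Of the 13 early zones above 1, 6 had intervals above 1. At 0 min 12 of the 13 were also above 1, against 93 of all 181 early zones. At 40 min 12 were below 1, against 108 of all 181.

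The median ratio of early zones was below 1 on all 16 chromosomes, from 0.921 on chromosome XIV to 0.983 on chromosome IX, and that of late zones was above 1 on all 16, from 1.002 on chromosome XII to 1.06 on chromosome VIII. On chromosomes XII and XIII all 16 early zones of each were below 1, and on chromosome IV 22 of 24. Of the late zones of these chromosomes, 8 of 15 were above 1 on chromosome XII, 9 of 15 on chromosome XIII and 13 of 24 on chromosome IV. Chromosome IX, with the early median nearest to 1, had 4 of 6 early zones below 1. The median over all windows lay between 0.968 on chromosome I and 1.03 on chromosome XI, and chromosome I, the shortest, had stood at 1.18 before release, with 0.983 at 15 min and 0.884 at 40 min.

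**Figure D4:**
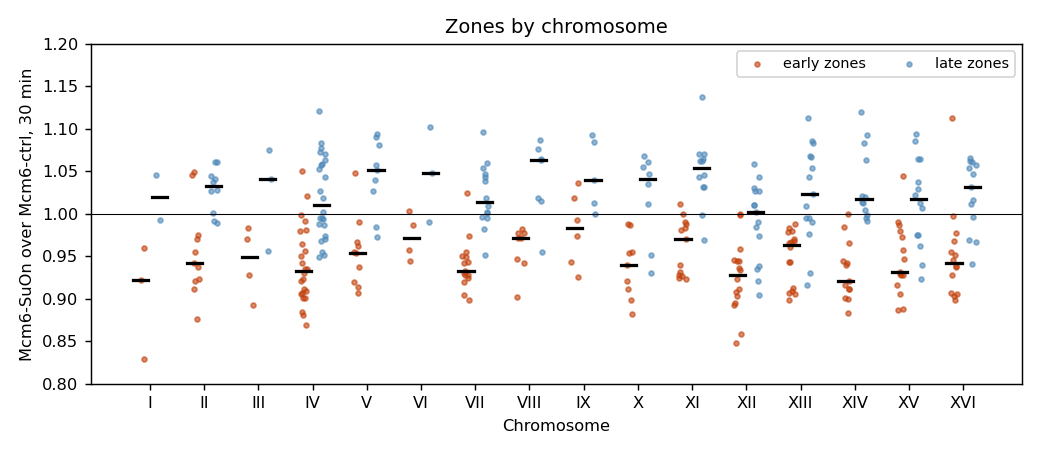
Ratio of Mcm6-SuOn over Mcm6-ctrl at 30 min (y axis) at each early and late zone (points) by chromosome (x axis), with black bars at the medians. The early bar lies below 1 and the late bar above 1 on all 16 chromosomes.

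Single windows varied more than counting error and rarely by much. The log2 genotype ratio had an SD of 0.10 over 22645 windows, against 0.053 from counting, and 90% of windows lay between 0.893 and 1.12. Windows 1 kb apart, which do not overlap, had a Pearson correlation of 0.55, those 5 kb apart 0.41, those 10 kb apart 0.24 and those 20 kb apart -0.051, so that the differences ran over stretches of about 10 kb. A ratio below 1/1.2 was found in 83 windows (0.367% of those compared) and a ratio above 1.2 in 87 (0.384%). Dividing each window by the 0 min genotype ratio, which brings in the Mcm6-ctrl library that stood apart, gave 2039 lower and 959 higher windows. With the whole of chromosome III kept there were 90 lower and 271 higher. Of the lower windows, 48 (57.8%) lay within 5 kb of an early zone centre, against 16.2% of all windows, and 3 lay within 5 kb of a late zone centre. None of the higher windows lay within 5 kb of an early zone centre. Of these, 25 (28.7%) lay within 30 kb of a chromosome end, against 5.56% of all windows, and 14 (16.1%) within 5 kb of a late zone centre, against 15.0%.

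The 10 lowest places of the genotype ratio, taken as a rolling median over 21 windows at least 20 kb apart, were chosen on this ratio and are a description. All 10 had an early zone centre within 5 kb, which holds for 16.2% of all windows. All 10 were also below 1 at 15 min, with ratios from 0.914 to 0.987, in libraries that did not enter the choice. Of all 181 early zones, 144 were below 1 at that time. At 40 min 5 of the 10 were below 1 and at 0 min 4, against 108 and 88 of the 181 early zones. Chromosome XII held 4 of them. At 507501 to 518500 there were 12447 Mcm6-SuOn reads and 15564 Mcm6-ctrl reads, a ratio of 0.851 (0.831 to 0.872). The stretches at 366001 to 377000, 410001 to 421000 and 598501 to 606500 had ratios of 0.865, 0.872 and 0.892. Chromosome I at 166001 to 174000 was the lowest place, at 0.848 (0.827 to 0.869). On chromosome IV, the stretch at 322001 to 333000 had 16414 Mcm6-SuOn reads and 19917 Mcm6-ctrl reads, a ratio of 0.877, and the stretch at 905501 to 916500 had 0.883. Chromosome X at 606001 to 617000 gave 0.883, chromosome II at 480501 to 491500 gave 0.882 and chromosome XIII at 367001 to 373000 gave 0.924.

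None of the 10 highest places had an early zone centre within 10 kb, which 31.6% of all windows do. A late zone centre lay within 10 kb of 2 of them, against 29.1% of all windows, and 5 lay within 30 kb of a chromosome end, against 5.56%. The highest was the left end of chromosome III at 1 to 9000, with 13883 Mcm6-SuOn reads and 12524 Mcm6-ctrl reads, a ratio of 1.18 (1.15 to 1.209), with 1.003 before release, 1.099 after 15 min and 1.11 after 40 min. The right end of chromosome XI at 660501 to 666454 had a ratio of 1.18 (1.14 to 1.22), its left end at 1 to 6000 had 1.14, the right end of chromosome VI at 264501 to 270148 had 1.14, and chromosome XIII at 8001 to 14000 had 1.12. Away from the ends, chromosome XI had 3 such places, at 74501 to 85500 with 1.15 (1.13 to 1.18), 355501 to 366500 with 1.14 (1.11 to 1.16) and 273001 to 284000 with 1.12 (1.097 to 1.15). The others were chromosome VIII at 79001 to 85500 with 1.14 and chromosome VI at 232501 to 243500 with 1.13. At 15 min 3 of the 10 were below 1, against 49.6% of all windows, and at 0 min 5 were, against 50.4%.

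In the outermost 10 kb of the chromosomes, DNA that replicates late in yeast, the median genotype ratio was above 1 at each time. This held before release too, and the ratio was highest at 30 min. At 30 min the median genotype ratio within 10 kb of an end was 1.08 over 257 windows, at 10 to 20 kb it was 1.04 and at 20 to 30 kb 1.01. Farther in it stayed between 0.996 and 1.01. The outer 10 kb were measured at 19 chromosome ends, which had from 5 to 20 windows each and so entered the 1.08 unequally. Of these ends, 14 had a median above 1. The values ran from 0.941 to 1.23 with a median over ends of 1.06, so that ends differed among themselves. The ratio near ends at 0 min was 1.03 within 10 kb and 1.18 at 10 to 30 kb, with 12 of the 19 ends above 1. In the 15 min libraries it fell with distance as at 30 min, with 1.04 within 10 kb, 1.02 at 10 to 20 kb and 1.01 at 20 to 30 kb, and 17 of the 19 ends were above 1. At 40 min 8 of the 19 ends were above 1, and the ratio was 1.03 within 10 kb and between 0.955 and 0.962 from 10 to 100 kb.

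**Figure D5:**
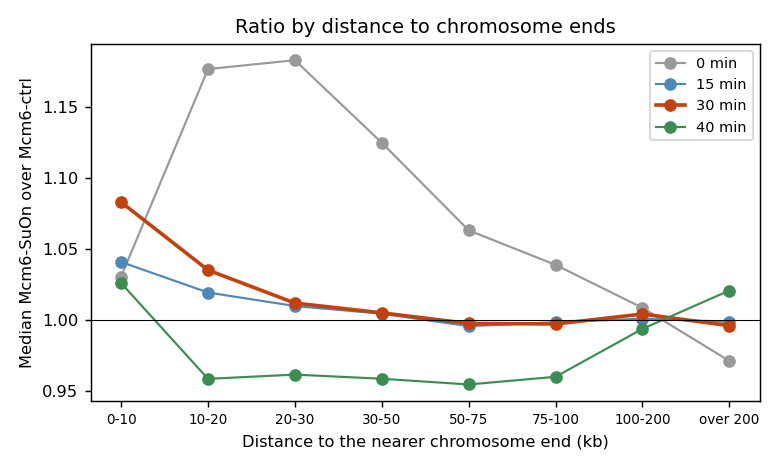
Median ratio of Mcm6-SuOn over Mcm6-ctrl (y axis) by distance to the nearer chromosome end in kb (x axis, unequal steps), with a line for each time. The 30 min line falls from 1.08 within 10 kb of an end to values near 1 beyond 30 kb, and the 0 min line stands at 1.18 between 10 and 30 kb.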

How the data were processed

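Genomic DNA was purified on CsCl and made into libraries with a KAPA kit, per the labels' protocols. Per the submitters' processing notes, coordinates are those of sacCer2. Which aligner, filters and counter were used is not given in the sources used here. For 0 min, the authors deposited raw read counts in windows of 1000 bp every 500 bp. For later times they deposited, per the file headers, a ratio (rcn), which the values show to be the count over that of the genotype's own 0 min library. The 30 min reads were recovered as ratio times 0 min count, rounded. In windows with a 0 min count under 1000, where a 3-decimal ratio need not match a whole number of reads, it did so within rounding in 198 of 198 Mcm6-SuOn windows and 1239 of 1239 Mcm6-ctrl windows, against 81.3% and 88.1% by chance. Rounding leaves an error of at most 0.793 reads in a median window. Windows listed at 0 were left out, and the lowest recovered 30 min count with a value was 601.

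Genotype and time, as labelled, set the groups. Each library was divided by its median window, reads were summed over non-overlapping windows, and zones were called on the 15 over 0 min profile after a local quadratic fit (tricube weights, half-width 12.5 kb, prominence at least 0.05). Regions were named by a fixed rule: the 10 highest early zones by 15 min profile, the 3 lowest and 3 highest early zones by ratio, the 10 lowest and 10 highest places, and chromosomes by median. Zones and measures were chosen with earlier results of these data known. The measuring of zones was tested on simulated data, and their calling was not. Python 3.11.15, numpy 2.4.6, scipy 1.17.1 and pandas 2.3.3 were used. Alternatives covered scaling, window filters, chromosome parts, zone placing, zone width and thresholds.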

Additional observations from a re-analysis of the deposited data

Results flagged for a closer look

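The early zones had a median genotype ratio of 0.943 at 30 min and 1.01 at 0 min, on opposite sides of 1 under the same comparison at 2 times. With 1 library per genotype and time the difference between the times was not tested.

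The right-hand part of chromosome III, left out of the comparisons above except where the whole chromosome is said to be kept, had a median ratio of 1.41 at 30 min over 232 windows, of which 227 were above 1 and the highest reached 1.73.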

How the results depend on the processing

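No paired analysis was possible because the labels give no replicate numbers and each genotype has 1 library per time. The direction of each zone result was kept under all 14 alternatives run for it: the early median stayed between 0.933 and 0.956, the late median between 1.02 and 1.05, the early minus late difference between -0.154 and -0.101, and the dip below the flanks between -0.149 and -0.0964. Several moved by more than counting error, and the cause was not tested. Dividing by the 0 min genotype ratio gave an early median of 0.940, a late median of 1.05, a difference of -0.154, an SD over windows of 0.183, and 2039 lower and 959 higher windows past 1.2-fold. A zone prominence of at least 0.1 gave 0.933, 1.03, -0.1435 and a dip of -0.149. Zones placed on Mcm6-SuOn alone gave an early median of 0.956, a difference of -0.101 and a dip of -0.0964, and zones placed on Mcm6-ctrl alone gave 0.945, 1.02, -0.113 and -0.110. Zones over the Mcm6-SuOn 0 min library alone, an alternative chosen after seeing the data, gave 0.9496, -0.112 and -0.114. Windows within 1 kb of the centre gave 0.938 and 1.02, and within 5 kb 0.947, 1.02, -0.110 and -0.116. Scaling by chromosome gave an SD of 0.0987 and a difference of -0.119, and leaving out chromosome XII a late median of 1.03 and a difference of -0.1296.

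Counts of windows past the threshold depended on it by construction. At 1.1-fold there were 1982 lower and 1983 higher windows, and at 1.5-fold 0 lower and 1 higher. Non-overlapping windows gave 40 and 48, and a rolling median over 11 windows 4 and 4. With the whole of chromosome III kept, 271 windows were higher against 90 lower, and the SD was 0.111. At this depth, 41 of 181 early zones and 67 of 166 late zones held 1 in their counting interval.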

Other observations

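Ordered by the smoothed 15 over 0 min profile instead of by zones, windows had higher genotype ratios at the low end of the profile and lower ones at the high end. In 10 equal classes of windows, the class with the lowest profile had a median genotype ratio of 1.03 at 30 min, with 29.6% of windows below 1. Class 5 had 1.003, class 7 had 0.979 and the highest class 0.977, with 62.5% below 1. At 0 min the lowest class had 0.929 and the highest 1.201, and at 40 min 1.03 and 0.918. The 0 min reads, with the Mcm6-ctrl library that stood apart, are the denominator of the profile that ordered the windows. The 0 min values are therefore not independent of the ordering, and the share of this in them was not tested.

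The ribosomal DNA array lies on chromosome XII. The 4 windows at 459001 to 461500 of that chromosome had read levels of 49.1 times the median window in Mcm6-SuOn and 47.9 in Mcm6-ctrl at 30 min. Their median genotype ratio was 1.05 before release, 0.926 after 15 min, 1.03 after 30 min and 1.08 after 40 min. Placing these windows in the array rests on their read level, since no annotation of the build was used here.

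Of all windows compared, 1 differed by more than 1.5-fold at 30 min, at 213501 to 214500 on chromosome VIII, which was chosen for mention after its value was seen. It had 1265 Mcm6-SuOn reads and 675 Mcm6-ctrl reads, a ratio of 1.99 (1.82 to 2.19), and the ratio was 2.28 at 0 min and 1.92 at 15 min.

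Across windows, the log2 genotype ratio at 30 min had a Pearson correlation of 0.14 with that at 15 min, 0.12 with that at 40 min and -0.030 with that at 0 min. Neighbouring windows overlap and are not replicates.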
